A study of Mus musculus with 12 samples.

Results

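The 35 genes described here encode members of the nuclear receptor superfamily. They were picked by symbol from a table of 61210 genes measured by total RNA-seq in brown adipose tissue (iBAT), and all 35 were found. The 12 libraries came from wild type C57BL/6N mice aged 20 weeks, with 3 libraries in each of 4 groups: control diet (NCD) at 22 °C, NCD at 4 °C, high-fat diet (HFD) at 22 °C and HFD at 4 °C. HFD was given for 12 weeks from 8 weeks of age, and the cold groups spent 24 h at 4 °C. No mouse carried an engineered allele, and the sex of the animals is not given in the sources used here. Every library is a separate sample of whole tissue, and p-values weigh differences between groups against the spread between these libraries.

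Nuclear receptors are transcription factors. Most bind DNA through a zinc finger domain and carry a ligand-binding domain that exchanges corepressors for coactivators when a small lipophilic ligand such as a steroid, thyroid hormone, retinoic acid, an oxysterol or a fatty acid is bound. Orphan members, among them the oestrogen-related receptors and the NR4A receptors, have no known physiological hormone and are set largely by their own abundance and by coactivators. In brown fat, PPARgamma is required for the adipocyte programme, thyroid hormone made locally by the deiodinase *Dio2* acts on *Ucp1*, the uncoupling protein, and ERRalpha with the coactivator PGC-1alpha (*Ppargc1a*) drives mitochondrial genes.

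Of the 35 genes, 33 had enough counts to be tested. The other two were *Pgr*, the progesterone receptor, with 0 to 2 counts per library, and *Nr0b2*, the corepressor-like receptor SHP, with 0 counts in 11 libraries and 1 count in replicate 3 of HFD at 4 °C. A library with 0 counts allows up to 3. Totals ran from 15136861 to 46740702 estimated counts per library, and the 33 tested genes held between 7 counts (*Vdr*) and 15368 counts (*Ppara*) in a library. By the labels, replicates 1 and 2 of each group formed 1 batch and replicate 3 of each group another. The libraries carried the markers of their tissue: *Ucp1* lay between 3789 and 4804 CPM (reads of a gene scaled to a common library size) in NCD at 22 °C. The summed level of 7 skeletal muscle markers varied within every group, from 2308 to 14280.0 CPM in NCD at 22 °C, 1014 to 7565 CPM in NCD at 4 °C, 1652 to 15012 CPM in HFD at 22 °C and 478 to 4583 CPM in HFD at 4 °C.

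The receptors of lipid metabolism stood at the top of the family. Levels are given here as CPM per kilobase of the longest coding transcript, which allows genes to be compared with each other. In NCD at 22 °C, *Pparg* (PPARgamma, the receptor that directs adipocyte differentiation) had 139.8 ± 3.9 CPM per kilobase (SD, n = 3), above 97.0% of the 13197 coding genes tested. *Esrra* (ERRalpha) followed with 64.4 ± 4.73, *Ppara* (PPARalpha, the fatty acid sensor that drives lipid oxidation) with 49.3 ± 20.1, *Nr1h3* (LXRalpha, an oxysterol receptor) with 36.6 ± 1.90 and *Thra* (the thyroid hormone receptor TRalpha) with 30.0 ± 7.08 CPM per kilobase. The range of *Esrra* touched neither that of *Pparg* nor that of *Nr1h3*, while *Ppara* overlapped *Esrra*, and *Thra* could not be separated from *Nr3c1* (the glucocorticoid receptor) at 29.9 ± 0.491. With union exon length in place of transcript length, 4 of these 5 genes remained in the first 5 places.

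The rest of the family spread widely, down to *Nr4a3* at 0.154 and *Vdr*, the vitamin D receptor, at 0.144 CPM per kilobase. Of the 33 genes, 19 lay above the median coding gene, and their median percentile was 54.3. *Pparg* held the first rank in all 4 groups. *Esr1*, the oestrogen receptor ERalpha, moved furthest down the order, from rank 15 in NCD at 22 °C to rank 24 in NCD at 4 °C, 26 in HFD at 22 °C and 29 in HFD at 4 °C. *Nr4a1* moved furthest up, from rank 22 to rank 14 with cold on NCD and from rank 22 to rank 11 with cold on HFD.

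**Figure D1:**
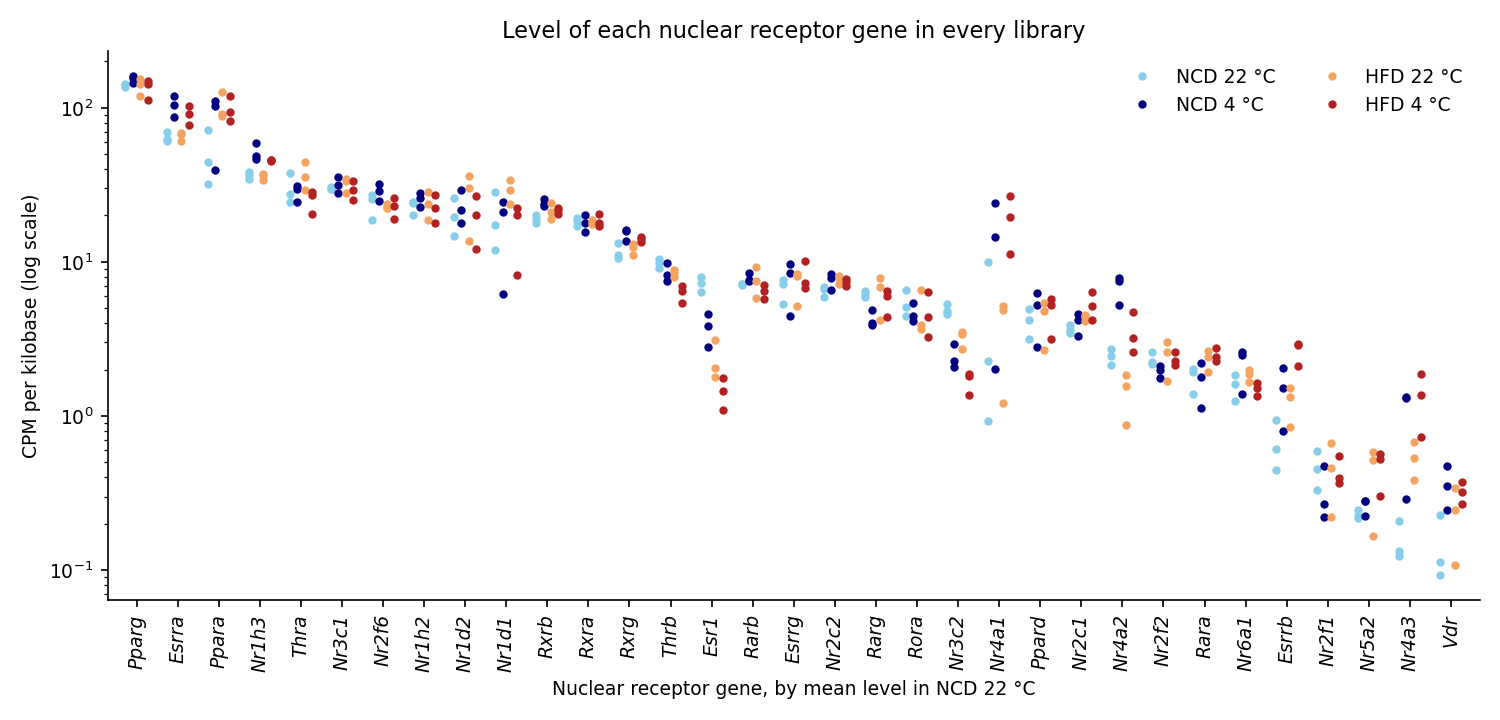
Level of the 33 tested nuclear receptor genes in CPM per kilobase of the longest coding transcript (log axis), 1 point per library, coloured by group and ordered by the mean level in NCD at 22 °C. *Pparg* stands highest at 139.8 CPM per kilobase and *Vdr* lowest at 0.144, *Esr1* falls through the groups, and *Nr4a1* is spread widely within them.

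A gene is described as changed where edgeR's quasi-likelihood test gave a Benjamini-Hochberg adjusted p under 0.05 over all 16737 genes tested and an absolute log2 fold change over 0.5. This test in the fit of the 4 group means to all 12 libraries is called the main fit. Across the 4 groups, tested on the adjusted p alone, 8 of the 33 receptor genes (24.2%) differed, against 24.3% of all genes tested: *Esr1*, *Nr3c2*, *Nr4a2*, *Nr4a3*, *Esrra*, *Esrrb*, *Nr1h3* and *Thrb*. This share was close to that of all genes.

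Cold on NCD raised *Nr4a2*, *Nr4a3* and *Esrra* and lowered *Nr3c2* and *Esr1*, 5 of 33 genes (15.2%) against 6.27% of all genes tested. Among all genes tested, 3.72% rose and 2.55% fell. The median log2 fold change of the 33 genes was 0.16, against -0.01 over all genes, and 22 of the 33 were positive. The libraries at 22 °C and 4 °C did not overlap for 13 of the 33 genes, against 27.8% of all genes tested. Cold on HFD raised *Nr4a2* and lowered *Nr3c2*, 2 of 33 genes (6.06%) against 9.58% of all genes, of which 5.39% rose and 4.19% fell. Here 13 of the 33 genes did not overlap between temperatures, against 30.3% of all genes tested. The median log2 fold change there was -0.01, against -0.04 over all genes. When the replicate number was fitted as a block within each diet, 7 genes changed with cold on NCD, *Esrrb* rising and *Rarg* falling in addition, and 6 changed with cold on HFD, with *Esrrb* and *Nr4a1* higher and *Esr1* and *Thra* lower in addition. Under that fit 8.86% and 12.9% of all genes changed.

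**Figure D2:**
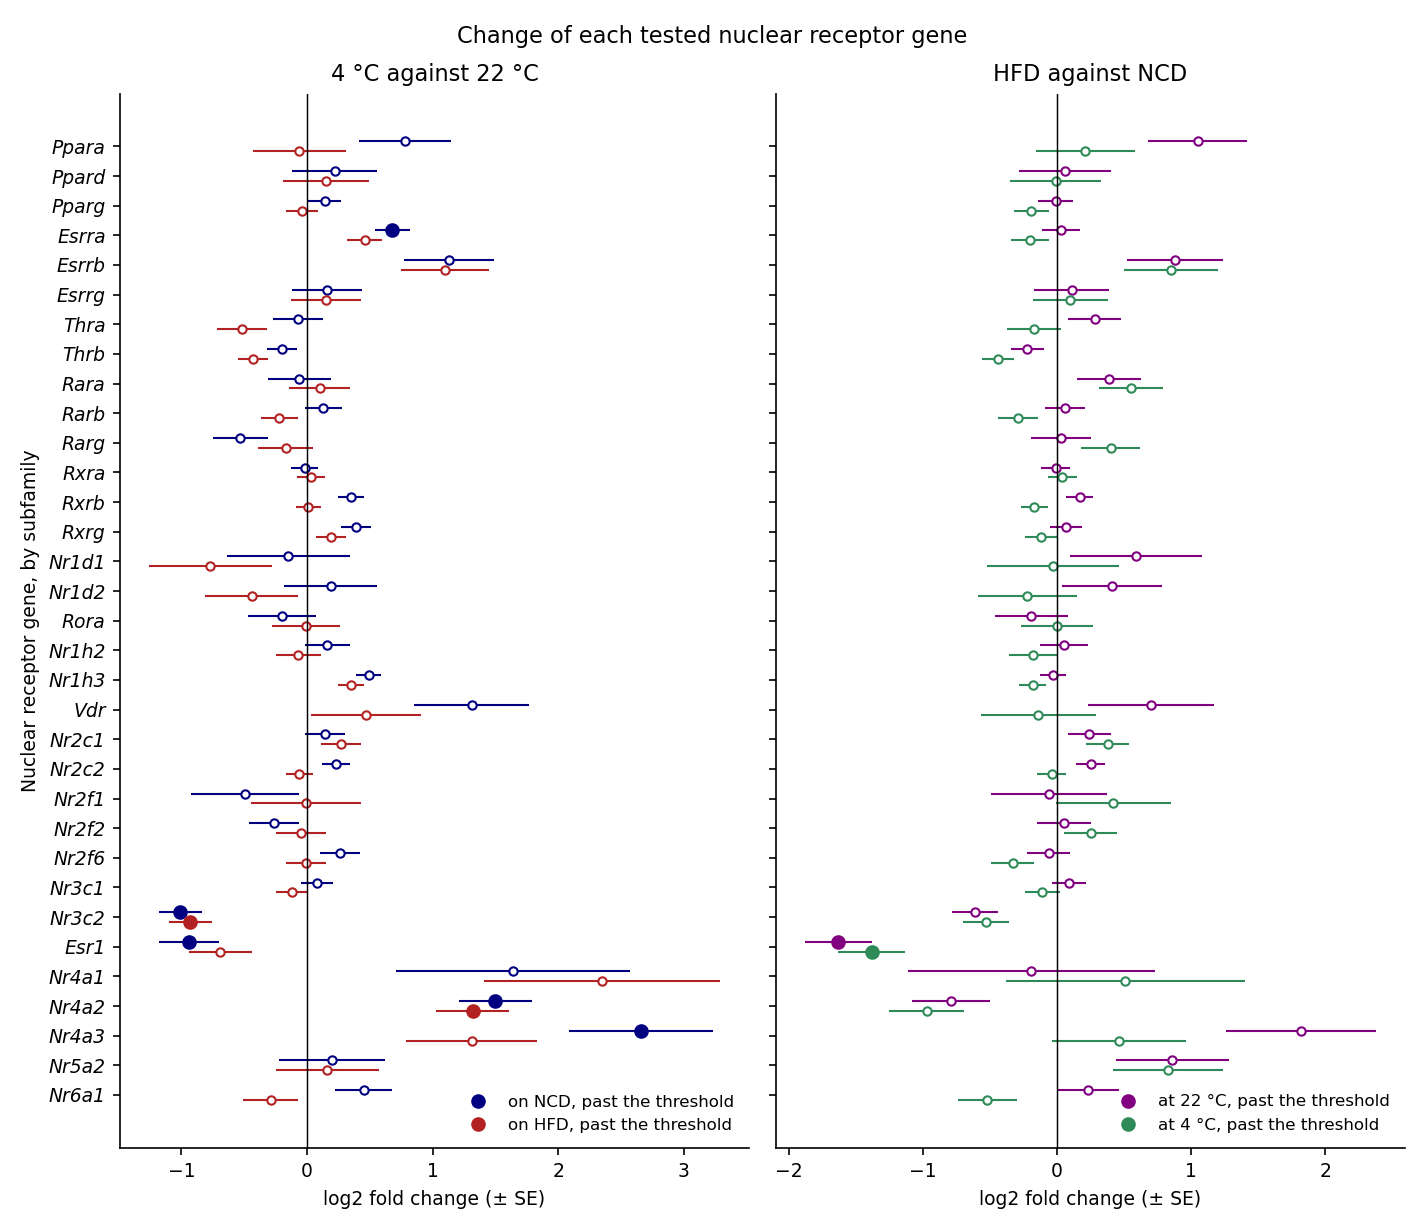
Log2 fold change with its standard error for the 33 tested genes, ordered by subfamily: 4 °C against 22 °C on each diet (left panel) and HFD against NCD at each temperature (right panel). Filled points passed an adjusted p of 0.05 and an absolute log2 fold change of 0.5; 5 do so for cold on NCD, 2 for cold on HFD, and *Esr1* alone in each HFD comparison.

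The NR4A receptors are immediate early genes: their transcription is induced within minutes to hours by cAMP and calcium signals, and they act without a known ligand. *Nr4a2* (NURR1) lay at 9.70, 8.78 and 7.67 CPM in NCD at 22 °C and at 27.0, 28.1 and 18.8 CPM in NCD at 4 °C. On HFD the values were 5.60, 6.53 and 3.11 CPM at 22 °C and 11.4, 17 and 9.23 CPM at 4 °C. Every cold library was above every 22 °C library of its diet, and on each side of the temperature change the HFD libraries lay below the NCD libraries. Cold raised *Nr4a2* by 1.50 on the log2 scale on NCD (SE 0.29, adjusted p = 0.0116) and by 1.32 on HFD (SE 0.29, adjusted p = 0.0163), 2.83-fold and 2.49-fold. In replicates 1 and 2 alone the cold changes were 1.57 and 1.23. Replicate 3 is a single library in each group, so its batch has no test of its own. Without replicate 3 of NCD at 22 °C the change on NCD was 1.42 and no longer passed (adjusted p = 0.0551), and with only the 6 HFD libraries fitted the change on HFD was 1.32 (adjusted p = 0.0714).

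*Nr4a3* (NOR1), the least abundant of the trio, was at 1.18, 0.756 and 0.710 CPM in NCD at 22 °C and at 7.45, 7.59 and 1.66 CPM in NCD at 4 °C. In HFD it was at 2.19, 3.03 and 3.87 CPM at 22 °C and at 7.79, 10.8 and 4.20 CPM at 4 °C. The groups did not overlap on either diet, but replicate 3 of NCD at 4 °C was far below the other two libraries of its group. The change with cold was 2.66 on the log2 scale on NCD (SE 0.57, adjusted p = 0.0176), 6.32-fold, and 1.31 on HFD (SE 0.52, adjusted p = 0.127). In replicates 1 and 2 alone it was 2.95 on NCD and 1.82 on HFD (adjusted p = 0.0157 and 0.0296). The NCD call was lost without replicate 2 or 3 of NCD at 22 °C and without replicate 1 or 2 of NCD at 4 °C, where the log2 change lay between 2.36 and 2.58 and the adjusted p between 0.0526 and 0.0825.

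*Nr4a1* (NUR77) had the widest spread between replicates of all receptor genes, with a within-group SD of 1.43 on the log2 scale against a median of 0.294 over the 33 genes and 0.268 over all genes tested. Its values were 25.3, 5.81 and 2.38 CPM in NCD at 22 °C and 61.2, 36.9 and 5.18 CPM in NCD at 4 °C. On HFD they were 13.2, 3.08 and 12.4 CPM at 22 °C and 50.01, 68.1 and 28.5 CPM at 4 °C. The groups overlapped on NCD and not on HFD. The cold changes of 1.64 (SE 0.93, adjusted p = 0.344) on NCD and 2.35 (SE 0.94, adjusted p = 0.133) on HFD did not pass, while with the replicate block within diet the adjusted p was 0.083 and 0.0216. *Nr4a1* accounted for 51% ± 24.4 of the summed NR4A level per kilobase in NCD at 22 °C and 79.4% ± 2.07 in HFD at 4 °C (SD, n = 3), where *Nr4a2* held 15.1% ± 2.40.

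The start regions of the 3 NR4A genes are shown because cAMP-responsive promoters carry copies of the short motif TGACG, the core of the cAMP response element that CREB binds. The sequences run from 250 bases before to 50 bases after the RefSeq transcription start on GRCm38.p6, 5′ to 3′ on the gene's own strand, with TGACG and its reverse complement CGTCA in capitals. They lie at chr15:101266596-101266895 (plus strand, *Nr4a1*), chr2:57123954-57124253 (minus strand, *Nr4a2*) and chr4:48045055-48045354 (plus strand, *Nr4a3*).
Nr4a1: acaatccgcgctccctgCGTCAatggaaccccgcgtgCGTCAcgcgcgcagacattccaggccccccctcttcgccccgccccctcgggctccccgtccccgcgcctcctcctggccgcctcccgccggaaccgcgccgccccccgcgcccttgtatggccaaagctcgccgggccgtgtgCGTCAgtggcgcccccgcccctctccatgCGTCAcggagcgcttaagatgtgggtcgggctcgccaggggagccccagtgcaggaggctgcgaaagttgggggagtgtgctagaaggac
Nr4a2: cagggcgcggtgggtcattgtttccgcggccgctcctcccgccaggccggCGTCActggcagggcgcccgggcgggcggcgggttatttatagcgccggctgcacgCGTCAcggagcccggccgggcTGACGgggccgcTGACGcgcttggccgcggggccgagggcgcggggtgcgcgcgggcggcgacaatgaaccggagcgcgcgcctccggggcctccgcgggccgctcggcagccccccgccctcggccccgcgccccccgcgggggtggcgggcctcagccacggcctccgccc
Nr4a3: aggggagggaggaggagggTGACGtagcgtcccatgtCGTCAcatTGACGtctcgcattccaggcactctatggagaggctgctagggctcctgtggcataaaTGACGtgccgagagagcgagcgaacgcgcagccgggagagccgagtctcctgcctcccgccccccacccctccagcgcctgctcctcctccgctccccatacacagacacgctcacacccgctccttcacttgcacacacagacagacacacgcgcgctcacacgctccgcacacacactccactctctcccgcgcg
Each of the 3 windows held 4 copies. Among 27025 genes with such a window, 69 (0.255%) held 4 or more and 6228 (23.0%) held at least 1. A window was given for 33 of the 35 receptor genes, all but *Thra* and *Nr3c1*, and 13 of these held at least 1 copy; no receptor gene outside the NR4A trio held 3 or more. The full element TGACGTCA occurred in 2.03% of all genes and in *Nr6a1* alone among the receptors. A match is a description of the letters and was not tested as a binding site.

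The oestrogen-related receptors bind the promoters of oxidative and mitochondrial genes together with PGC-1alpha. *Esrra* (chr19:6910977-6921813, minus strand, GRCm38) lay at 136, 141 and 156 CPM in NCD at 22 °C and at 196, 232 and 267 CPM in NCD at 4 °C. In HFD it lay at 136, 154 and 152 CPM at 22 °C and at 173, 205 and 230 CPM at 4 °C. No cold library fell within the range at 22 °C on either diet. The rise on NCD was 0.68 on the log2 scale (SE 0.14, adjusted p = 0.0135), 1.60-fold. On HFD it was 0.46 (SE 0.14, adjusted p = 0.0523). The NCD rise was 0.63 in replicates 1 and 2 alone (adjusted p = 0.0758) and did not pass without replicate 1 (adjusted p = 0.0614) or replicate 2 (adjusted p = 0.0547) of NCD at 22 °C. *Esrra* made up 88.6% to 91.8% of the summed level per kilobase of the 3 genes in the group means.

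*Esrrb* (ERRbeta, chr12:86361117-86521628, plus strand) was rare, at 1.93, 4.07 and 2.62 CPM in NCD at 22 °C, 3.44, 8.83 and 6.56 CPM in NCD at 4 °C, 3.67, 6.48 and 5.68 CPM in HFD at 22 °C and 12.4, 12.7 and 9.07 CPM in HFD at 4 °C. The 3 libraries of HFD at 4 °C were the highest of the 12, and cold and 22 °C libraries overlapped on NCD. The log2 change with cold was 1.13 (SE 0.36, adjusted p = 0.0854) on NCD and 1.10 (SE 0.35, adjusted p = 0.067) on HFD. With the replicate block within diet the adjusted p was 0.0198 and 0.0116. The summed level of 4 endothelial markers, none at 0 in all libraries, ran in the same order of groups from 445 to 564, 646 to 744, 642 to 871 and 867 to 996 CPM, and its part in the *Esrrb* values was not tested. *Esrrg* (ERRgamma), at 36 ± 6.49, 40.3 ± 14.5, 38.8 ± 9.58 and 43.2 ± 9.58 CPM in the same order of groups (SD, n = 3), did not pass in any comparison.

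The steroid receptors gave the largest falls. *Nr3c2*, the mineralocorticoid receptor, binds aldosterone and glucocorticoids. Its gene spans chr8:76899442-77245012 on the plus strand (GRCm38). It lay at 27.1, 31.6 and 28.3 CPM in NCD at 22 °C and at 13.4, 12.3 and 17.4 CPM in NCD at 4 °C. On HFD it lay at 20.8, 20.2 and 16.1 CPM at 22 °C and at 8.10, 11.1 and 10.7 CPM at 4 °C. All cold libraries were below all 22 °C libraries of their diet. *Nr3c2* fell by 1.01 on the log2 scale on NCD (SE 0.17, adjusted p = 0.00596) and by 0.93 on HFD (SE 0.17, adjusted p = 0.00651), 2.01-fold and 1.91-fold lower. Both calls held in each of the 12 fits that left out 1 library, and in replicates 1 and 2 alone the log2 changes were -1.19 and -1.10. *Nr3c1*, the glucocorticoid receptor of the same subfamily, stayed between 163 and 230 CPM in all 12 libraries and did not pass in any comparison.

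*Esr1*, the oestrogen receptor ERalpha (chr10:4611593-5005614, plus strand), was the only gene of this set that changed with HFD at either temperature in the main fit. By DESeq2 *Ppara*, *Nr4a3* and *Nr3c2* also changed at 22 °C, and *Nr4a2* and *Nr3c2* at 4 °C. With batch as a term *Nr4a2* passed at both temperatures. The levels of *Esr1* are given next. Its levels were 46.0, 40.2 and 50.5 CPM in NCD at 22 °C, 24.2, 17.8 and 29.0 CPM in NCD at 4 °C, 11.4, 12.9 and 19.7 CPM in HFD at 22 °C and 6.89, 9.25 and 11.1 CPM in HFD at 4 °C. The libraries of NCD at 22 °C lay above all others, and the HFD libraries lay below the NCD libraries at 4 °C. HFD lowered *Esr1* by a log2 change of -1.63 at 22 °C (SE 0.25, adjusted p = 0.00786), 3.09-fold, and of -1.38 at 4 °C (SE 0.25, adjusted p = 0.0116), 2.60-fold. Cold changed it by -0.94 on NCD (SE 0.24, adjusted p = 0.0383) and by -0.69 on HFD (SE 0.25, adjusted p = 0.092).

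The HFD change of *Esr1* at 22 °C passed in all 12 fits that left out 1 library, between -1.91 and -1.51. At 4 °C it did not pass without replicate 1 of HFD at 4 °C (adjusted p = 0.0523), without replicate 3 of NCD at 4 °C (adjusted p = 0.0505), in replicates 1 and 2 alone (-1.38, adjusted p = 0.0582) or when only the 6 libraries at 4 °C were fitted (-1.37, adjusted p = 0.0576). The fall with cold on NCD passed in 5 of the 12 fits, and over all 12 its log2 change lay between -1.11 and -0.77. It was lost without any 1 of the 3 replicates of NCD at 22 °C, replicates 1 or 2 of NCD at 4 °C, replicate 2 of HFD at 22 °C or replicate 2 of HFD at 4 °C, at adjusted p between 0.0525 and 0.13, and in replicates 1 and 2 alone (-1.04, adjusted p = 0.0515) or with a score of the 7 muscle markers as a term (-0.86, adjusted p = 0.0596). With the replicate block within diet the adjusted p of the cold change was 0.00319 on NCD and 0.00874 on HFD.

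As shares of the summed level per kilobase of *Nr3c1*, *Nr3c2* and *Esr1* (the tested steroid receptors), *Nr3c1* rose from 71.2% ± 0.648 in NCD at 22 °C to 83.8% ± 2.64 in NCD at 4 °C, 85.1% ± 2.03 in HFD at 22 °C and 90.4% ± 1.14 in HFD at 4 °C (SD, n = 3). *Esr1* held 17.1% ± 1.56, 9.81% ± 1.70, 6.33% ± 2.51 and 4.41% ± 0.831 in the same order. In whole tissue, fewer cells of a type and less RNA per cell cannot be told apart. The summed level of 5 fibroblast and preadipocyte markers, none at 0 in all libraries, lay between 414 and 603 CPM in NCD at 22 °C, 251 and 317 CPM in NCD at 4 °C, 243 and 378 CPM in HFD at 22 °C and 238 and 327 CPM in HFD at 4 °C. Of these markers 2 of 5 (*Col1a1* and *Dpt*) fell with cold on NCD and with HFD the smallest adjusted p of the 5 was 0.059 at 22 °C and 0.138 at 4 °C. Averaged over both temperatures 1 of the 5, *Col1a1*, was lower on HFD (edgeR adjusted p = 0.0268), and averaged over both diets *Col1a1* and *Dpt* were lower in the cold. Their part in the fall of *Esr1* and *Nr3c2* was not tested.

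**Figure D3:**
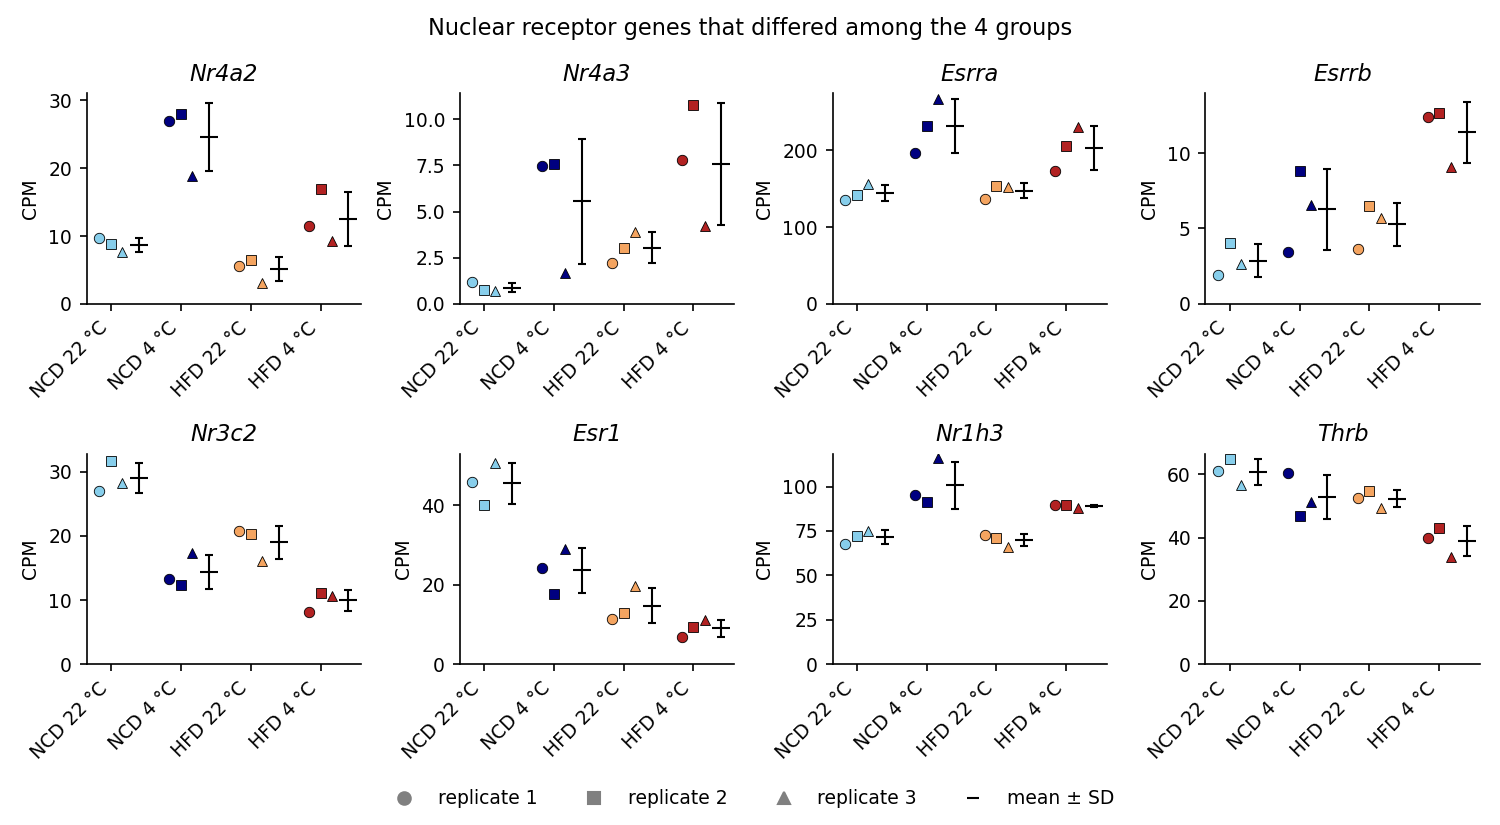
CPM of the 8 receptor genes that differed among the 4 groups, 1 symbol per library (circle, square and triangle for replicates 1, 2 and 3) with the group mean ± SD beside them. *Esr1* drops from a mean of 45.6 CPM in NCD at 22 °C to 9.09 CPM in HFD at 4 °C, *Nr3c2* drops with cold on both diets, and *Nr4a2* and *Esrra* rise with cold on both.

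HFD changed 1 of 33 receptor genes at 22 °C (3.03%), against 2.09% of all genes tested and 1.09% lower, and 1 of 33 at 4 °C, against 4.75% and 2.69% lower. The median log2 fold change of the 33 genes was 0.06 at 22 °C and -0.11 at 4 °C, against 0.03 and 0.02 over all genes. Averaged over both temperatures, HFD changed 4 genes (12.1%), against 7.8% of all genes (4.24% higher and 3.55% lower): *Esr1* (-1.50, SE 0.17, adjusted p = 0.00052), *Nr4a2* (-0.88, SE 0.20, adjusted p = 0.0179) and *Nr3c2* (-0.57, SE 0.12, adjusted p = 0.0114) were lower and *Esrrb* (0.87, SE 0.25, adjusted p = 0.0425) was higher. The *Esrrb* call held in 3 of the 12 fits that left out 1 library. Over all 12 fits its log2 change lay between 0.70 and 1.03. The call was kept without replicate 1 of HFD at 22 °C or replicate 2 of NCD at 22 °C or 4 °C, and lost otherwise. In replicates 1 and 2 alone *Esr1* and *Nr4a2* passed and *Nr3c2* (-0.47) and *Esrrb* (0.90) did not.

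Averaged over both diets, cold changed 6 genes (18.2%), against 12.7% of all genes (6.09% higher and 6.6% lower): *Nr4a3* (1.98), *Nr4a2* (1.41), *Esrrb* (1.12) and *Esrra* (0.57) were higher and *Nr3c2* (-0.97) and *Esr1* (-0.82) were lower on the log2 scale. In replicates 1 and 2 alone all but *Esrrb* (1.16, adjusted p = 0.0744) passed, and *Nr4a1* passed in addition. *Nr4a1* also passed for this average with DESeq2, without a filter and with a replicate block. The comparisons share libraries, since each group enters a cold and an HFD comparison and all 4 enter the averages. No receptor gene passed the test of the interaction of diet and temperature by edgeR or by DESeq2, and by edgeR 0% of all genes did. The smallest adjusted p by edgeR was 0.742, and 2 genes, *Rxrb* (-0.34) and *Nr6a1* (-0.74), had an unadjusted p under 0.05, against 6.52% of all genes. The difference between the diets in the cold change of *Nr4a3* or *Esr1* was therefore not shown.

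The PPAR genes did not change past the threshold in any comparison of the main fit. *Pparg* lay at 305, 289 and 298 CPM in NCD at 22 °C, 343, 307 and 331 CPM in NCD at 4 °C, 327, 302 and 254 CPM in HFD at 22 °C and 302, 318 and 240 CPM in HFD at 4 °C. The log2 change with cold was 0.14 on NCD (SE 0.13, adjusted p = 0.601) and -0.04 on HFD (SE 0.13, adjusted p = 0.876). *Ppara* lay at 244, 109 and 151 CPM in NCD at 22 °C, 379, 352 and 135 CPM in NCD at 4 °C, 302, 310 and 434 CPM in HFD at 22 °C and 404, 318 and 281 CPM in HFD at 4 °C. All libraries of HFD at 22 °C were above those of NCD at 22 °C, with a log2 difference of 1.05 (SE 0.37, adjusted p = 0.167 by edgeR and 0.046 by DESeq2), while replicate 3 of NCD at 4 °C lay within the range at 22 °C. *Ppara* held 24.9% ± 7.10 of the summed PPAR level per kilobase in NCD at 22 °C, 33.5% ± 11.8 in NCD at 4 °C, 41.6% ± 8.22 in HFD at 22 °C and 41.2% ± 3.53 in HFD at 4 °C (SD, n = 3), and *Pparg* nearly all of the rest.

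The receptors for oxysterols and thyroid hormone did not pass the threshold in any cold or HFD comparison of the main fit. For cold on NCD *Nr1h3* passed without a filter. It also passed there without replicate 1 or 2 of NCD at 4 °C or replicate 3 of NCD at 22 °C. *Thra* passed for cold on HFD with batch, a replicate block or the muscle score as a term. *Thrb* passed there with the muscle score or without replicate 2 of HFD at 4 °C. For HFD at 4 °C *Thrb* passed without replicate 2 of NCD or of HFD at 4 °C. *Nr1h3* had the smallest spread between replicates of the family (0.106 on the log2 scale). It lay at 67.7, 71.9 and 75.1 CPM in NCD at 22 °C, 95.2, 91.2 and 116 CPM in NCD at 4 °C, 72.7, 71.2 and 66.0 CPM in HFD at 22 °C and 89.4, 89.5 and 88.1 CPM in HFD at 4 °C. The cold libraries stood above the 22 °C libraries on both diets, by 0.49 (SE 0.10, adjusted p = 0.0144) and 0.35 (SE 0.10, adjusted p = 0.0466) on the log2 scale. *Nr1h2* (LXRbeta) showed log2 changes of 0.16 and -0.07 with cold and did not pass.

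*Thrb* (TRbeta) lay at 61.1, 64.8 and 56.5 CPM in NCD at 22 °C, 60.5, 46.8 and 51.2 CPM in NCD at 4 °C, 52.5, 54.8 and 49.5 CPM in HFD at 22 °C and 40.0, 42.9 and 33.8 CPM in HFD at 4 °C. The 3 libraries of HFD at 4 °C were the lowest of the 12, and the log2 change with cold on HFD was -0.43 (SE 0.12, adjusted p = 0.0437). *Thra* lay at 93.1, 67.8 and 59.9 CPM in NCD at 22 °C, 76.8, 72.6 and 60.2 CPM in NCD at 4 °C, 108, 87.3 and 72.0 CPM in HFD at 22 °C and 67.0, 69.2 and 50.1 CPM in HFD at 4 °C. It did not overlap between temperatures on HFD, with a log2 change of -0.52 (SE 0.20, adjusted p = 0.114, and 0.017 with the replicate block within diet). *Thra* shares 263 bases of exon with *Nr1d1* on the opposite strand, and strand use in the counting is not given in the sources used here.

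The clock receptors varied widely between replicates. *Nr1d1* (REV-ERBalpha), a repressor of the core clock whose level cycles over the day, lay at 76.8, 32.3 and 47.5 CPM in NCD at 22 °C, 66.6, 57.7 and 16.9 CPM in NCD at 4 °C, 91.9, 64.5 and 79.1 CPM in HFD at 22 °C and 60.9, 55.1 and 22.4 CPM in HFD at 4 °C. Its within-group SD was 0.753 on the log2 scale, and replicate 3 was the lowest library of both cold groups. *Nr1d2* (REV-ERBbeta) had 56.3 to 169 CPM over the 12 libraries and a within-group SD of 0.544, and neither gene passed in any comparison. *Per1*, a clock gene that glucocorticoids and cAMP induce, had log2 changes with cold of 0.96 (SE 0.44, adjusted p = 0.231) on NCD and 0.63 (SE 0.44, adjusted p = 0.376) on HFD.

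**Figure D4:**
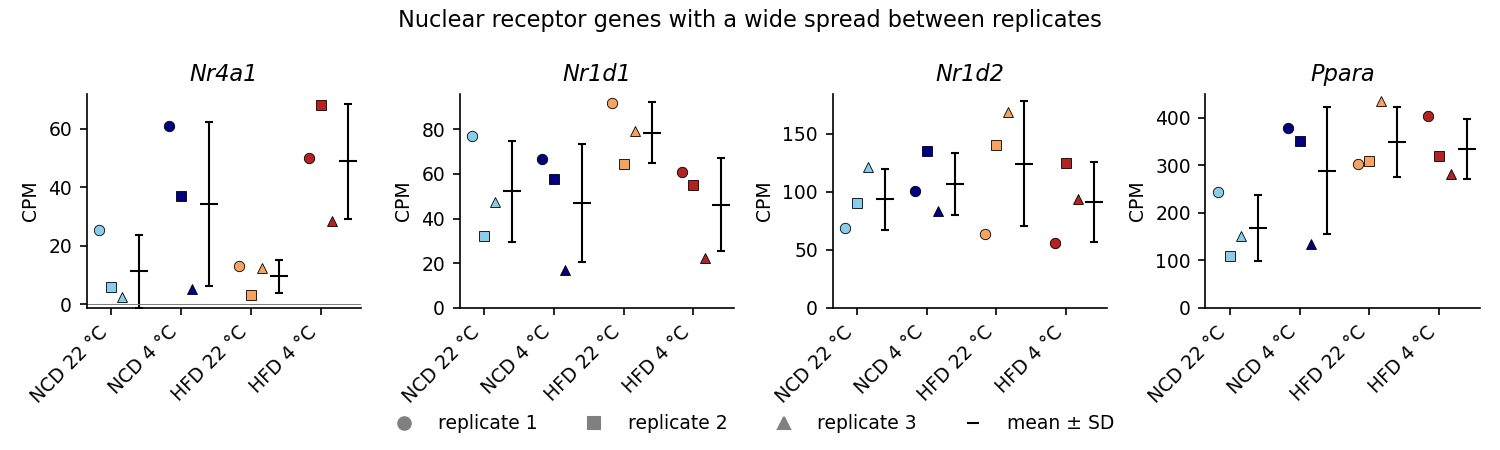
CPM of *Nr4a1*, *Nr1d1*, *Nr1d2* and *Ppara* in every library (circle, square and triangle for replicates 1, 2 and 3) with the group mean ± SD. Replicates of a group differ widely: *Nr4a1* runs from 5.18 to 61.2 CPM within NCD at 4 °C.

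The remaining receptors did not pass the threshold for cold or HFD in the main fit. The RXR genes, obligate partners of the PPAR, LXR, TR and RAR proteins, varied little: *Rxra* had group means of 87.9 to 90.6 CPM, *Rxrb* of 49.9 to 63.6 CPM and *Rxrg* of 24.6 to 32.2 CPM, and none changed past the threshold. The retinoic acid receptors *Rara*, *Rarb* and *Rarg* had group means of 5.76 to 8.39, 20.0 to 24.4 and 12.6 to 18.6 CPM. *Rarg* reached a log2 change of -0.53 with cold on NCD (SE 0.22, adjusted p = 0.172). It passed there in the 6 libraries compared alone, with the muscle score as a term and with the replicate block within diet. With the muscle score it also passed for cold averaged over both diets. *Rara* passed for HFD averaged over both temperatures without replicate 2 of NCD at 4 °C. The rare *Vdr* lay at 0.995, 0.407 and 0.490 CPM in NCD at 22 °C and at 2.06, 1.53 and 1.07 CPM in NCD at 4 °C, without overlap. On HFD the temperatures overlapped, at 1.48, 0.470 and 1.07 CPM at 22 °C and 1.62, 1.41 and 1.17 CPM at 4 °C. The log2 change of *Vdr* with cold on NCD was 1.31 (SE 0.46, adjusted p = 0.114). For cold averaged over both diets *Vdr* passed with the replicate block within diet or over all groups. It also passed there without replicate 1 of NCD at 22 °C or replicate 1 of HFD at 22 °C. *Nr5a2* had means of 1.08 CPM in NCD and 2.00 CPM in HFD at 22 °C, a log2 change of 0.86 (SE 0.42, adjusted p = 0.311). The orphan receptors *Nr2c1*, *Nr2c2*, *Nr2f1*, *Nr2f2*, *Nr2f6*, *Nr5a2* and *Nr6a1*, and *Ppard* and *Rora*, did not pass in any comparison of the main fit. *Nr6a1* passed for cold on NCD without replicate 3 of NCD at 4 °C. *Nr5a2* passed for HFD averaged over both temperatures without replicate 3 of HFD at 22 °C. Exons of *Nr2f6*, *Rarb* and *Nr2c2* overlap those of a coding gene on the opposite strand over 54.4%, 34.1% and 30.7% of their length, so their levels are less certain.

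Among 14 further receptors of the superfamily, 3 were tested. With cold 1 of them fell on NCD, HFD raised 1 at each temperature, and averaged over both temperatures HFD raised 1 and lowered 1. Averaged over both diets, cold lowered 1. Of all genes tested, 6.27% changed with cold on NCD, and 2.09% and 4.75% with HFD at 22 °C and 4 °C. The averaged cold and HFD comparisons changed 12.7% and 7.8% of all genes. *Rorb* (RORbeta) was higher on HFD, with 0.994 ± 0.111 CPM in NCD and 5.33 ± 0.545 CPM in HFD at 22 °C, a log2 change of 2.43 (SE 0.36, adjusted p = 0.00743), and with 0.527 ± 0.162 and 4.79 ± 2.14 CPM at 4 °C, a log2 change of 3.11 (SE 0.38, adjusted p = 0.00198; SD, n = 3).

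Of the coactivators 3 of 15 rose with cold on NCD and 1 of 15 on HFD, against 3.72% and 5.39% of all genes tested. *Ppargc1a*, the partner of ERRalpha and PPARgamma, had 49.5 to 70.5 CPM in NCD at 22 °C and 74.8 to 475 CPM in NCD at 4 °C, a log2 change of 2.25 (SE 0.50, adjusted p = 0.0202), and of 1.26 (SE 0.48, adjusted p = 0.116) on HFD. *Ncoa1* (SRC-1), a histone acetyltransferase recruited by liganded receptors, rose by 0.59 (adjusted p = 0.0247) on NCD and 0.97 (adjusted p = 0.00165) on HFD. *Ncoa4*, which also delivers ferritin for degradation, rose by 0.57 (adjusted p = 0.0125) on NCD. Of 9 corepressor genes, *Tbl1xr1* rose with cold on HFD by 0.58 (adjusted p = 0.00686) and the others did not pass. The median log2 change of the coactivators with cold was 0.03 on NCD and -0.01 on HFD, and that of the corepressors -0.07 and 0.02, close to all genes.

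Of 27 genes of ligand supply, 15 were tested. With cold 3 rose and 2 fell on NCD, and 2 rose and 4 fell on HFD. Of all genes tested, 3.72% rose and 2.55% fell on NCD, and 5.39% rose and 4.19% fell on HFD. The median log2 changes of the 15 genes were -0.21 and -0.35, against -0.01 and -0.04 over all genes. *Dio2*, which makes active thyroid hormone, rose from 52.7 to 80.4 CPM up to 365 to 699 CPM on NCD, a log2 change of 2.86 (SE 0.29, adjusted p = 0.000498), and by 2.62 on HFD (SE 0.28, adjusted p = 0.000474). *Fabp3*, a carrier of fatty acids, rose by 1.78 and 1.09 (adjusted p = 0.000498 and 0.00327). *Hsd11b1*, which regenerates active glucocorticoid within cells, fell with cold, by 1.03 on the log2 scale on NCD (adjusted p = 0.0229) and by 1.10 on HFD (adjusted p = 0.0134). It was also lower on HFD, with log2 changes of -1.58 at 22 °C (adjusted p = 0.00786) and -1.65 at 4 °C (adjusted p = 0.00406), so that its range went from 144 to 217 CPM in NCD at 22 °C to 21.2 to 35.3 CPM in HFD at 4 °C.

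The gene lists of known receptor targets differed in direction. Beside the counts for these lists, 3.72% of all genes tested rose and 2.55% fell with cold on NCD. On HFD 5.39% rose and 4.19% fell. The median log2 changes over all genes were -0.01 and -0.04. All 24 PPAR target genes were tested, and 10 rose with cold on NCD, with a median log2 change of 0.60, and 7 rose on HFD, with a median of 0.32. *Gk*, glycerol kinase, rose by 2.64 (SE 0.18, adjusted p = 5.08e-05) and 1.98 (SE 0.17, adjusted p = 0.000168), and *Acot1*, an acyl-CoA thioesterase, by 1.59 (adjusted p = 0.0281) and 2.50 (adjusted p = 0.00299). *Vnn1*, a pantetheinase, was higher on HFD at 4 °C by 2.55 (SE 0.43, adjusted p = 0.00886), at group means of 0.592 and 3.52 CPM. Of 9 ERR target genes 2 rose with cold on NCD and 1 on HFD: *Perm1*, a muscle and brown fat coregulator, by 1.32 (adjusted p = 0.025) and *Idh3a*, of the citric acid cycle, by 0.54 (adjusted p = 0.0284) on NCD, and *Got1* by 1.91 (adjusted p = 0.0179) on HFD. The median of the ERR list was 0.15 and 0.21.

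Of 5 tested thyroid hormone targets, 1 rose and 1 fell with cold on NCD, and 1 rose and 3 fell on HFD. *Ucp1* rose by 1.96 (SE 0.17, adjusted p = 0.000274) and 0.92 (SE 0.17, adjusted p = 0.00656). *Thrsp* and *Me1*, both of fatty acid synthesis, fell with cold on HFD by 1.98 (adjusted p = 0.00656) and 0.88 (adjusted p = 0.0122) on the log2 scale, and were lower on HFD at 4 °C, with log2 changes of -2.72 (adjusted p = 0.00294) and -2.09 (adjusted p = 0.000428). Of 9 LXR targets, *Apoe*, a lipoprotein component, fell with cold on NCD by 0.66 (adjusted p = 0.0209) and on HFD by 0.84 (adjusted p = 0.00535). On HFD 2 further targets rose, among them the cholesterol exporter *Abcg1* by 1.38 (adjusted p = 0.00653), and the desaturase *Scd1* fell by 0.97 (adjusted p = 0.0362). HFD lowered *Scd1* at 4 °C, with a log2 change of -1.83 (adjusted p = 0.00429).

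Of 10 glucocorticoid targets, 1 rose with cold on NCD and 2 on HFD, with medians of 0.68 and 0.48. *Sgk1*, a kinase that also responds to mineralocorticoid, rose by 1.26 (SE 0.18, adjusted p = 0.00244) and 1.15 (SE 0.18, adjusted p = 0.00278), and *Lcn2*, lipocalin, by 1.87 (adjusted p = 0.0456) on HFD. Of 4 tested retinoic acid targets, *Cyp26b1*, which degrades retinoic acid, fell with cold by 1.56 (adjusted p = 0.0475) on NCD and by 1.63 (adjusted p = 0.0327) on HFD. The 5 REV-ERB and ROR targets had median log2 changes with cold of 0.30 on NCD and 0.59 on HFD. Averaged over both diets 1 of the 5 rose with cold, against 6.09% of all genes tested.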

How the data were processed

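The authors trimmed reads with cutadapt and quantified them with salmon on GENCODE M22 with RNAcentral 5 (GRCm38), and deposited estimated counts per gene, as whole numbers and not normalized; replicates were not pooled. Counts were filtered (filterByExpr, minimum count 10) and TMM-normalized in edgeR 4.0.16 (R 4.3.3), and 4 group means were fitted to all 12 libraries with the quasi-likelihood test; p-values were adjusted by Benjamini-Hochberg over 16737 genes. Exact two-sided permutation tests of 3 libraries against 3 cannot go below p = 0.1. Each change called in a single comparison reached it, as any gene without overlap between the groups does. The genes were called on the same libraries, so this is not a separate check. SDs are over the 3 libraries of a group.

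Same-numbered libraries deviated together from their group means between temperatures (correlations 0.219 to 0.456 on NCD, 0.155 to 0.386 on HFD), so the block within diet is given beside cold results. Between diets the correlations had both signs (-0.211 to 0.365), and replicate 1 was positive at 22 °C (0.365) and at 4 °C (0.196). The origin of the pairing between temperatures is not given in the sources used here.

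The members and gene lists were chosen with earlier results of these data known. Receptor genes called in a comparison or among the 5 highest per kilobase are given in every library. *Thrb*, *Nr4a1*, *Nr1d1* and *Vdr* outside that rule were chosen after their values were seen. Of each list the 3 called genes with the largest change are named, except that values of some further superfamily genes are not reported here. Lengths and exon overlaps came from GENCODE M21 (GRCm38), promoters from RefSeq. Alternatives were DESeq2 1.42.0, its size factors, no filter, a mean of at least 10 counts, batch or replicate terms, 1 batch, only the groups compared, no minimum fold change, each library left out and, added after earlier results were known, a skeletal muscle score as a term. The steps were tested on simulated counts with changes placed in NCD at 4 °C alone. By edgeR, cold on NCD recovered 43% of 2-fold and 68% of 4-fold changes, and 6 of 117 calls were false. The interaction test recovered 8% and 52%. A gene that did not pass may therefore still have changed.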

Additional observations from a re-analysis of the deposited data

How the results depend on the processing

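No change past the threshold reversed under any alternative; values near 0 can change sign, such as the cold change of *Pparg* on HFD, -0.13 to 0.08 with 1 library left out. Among fits of the single receptor changes past the threshold, those leaving out 1 library kept the direction and side of the threshold in 203 cases and lost significance in 25, and those under other alternatives in 184 and 9. Counts of changed receptor genes moved as follows. Cold on NCD (5 genes) gave 3 in replicates 1 and 2 alone and 2 to 6 with 1 library left out, 3 without replicate 1 or 3 and 2 without replicate 2 of NCD at 22 °C. Cold on HFD (2) gave 4 with DESeq2, without a filter, with batch as a term or with no minimum fold change, 5 with a replicate block over all groups, 6 with the replicate block within diet or the muscle score as a term, 1 in the 6 libraries compared alone, and 2 to 3 with 1 library left out. HFD at 22 °C (1) gave 4 with DESeq2, 2 without a filter, with batch as a term or with the replicate block, and 1 to 2 with 1 library left out (2 without replicate 3 of NCD at 4 °C). HFD at 4 °C (1) gave 3 with DESeq2, 2 without a filter, with batch as a term, the replicate block or the muscle score, 0 in replicates 1 and 2 alone or in the 6 libraries compared, and 0 to 3 with 1 library left out: 0 without replicate 1 of HFD or replicate 3 of NCD, and 3 without replicate 2 of HFD, all at 4 °C. HFD averaged (4) gave 2 and the 4-group test (8) gave 4 in replicates 1 and 2 alone; with 1 library left out they gave 3 to 5 and 8 to 11, cold averaged (6) gave 6 to 8 and the interaction 0. With the muscle score as a term the cold change of *Esr1* on NCD was -0.86 (edgeR adjusted p = 0.0596). The share of all genes that changed moved too. Cold on NCD gave 2.12% in replicates 1 and 2 alone and 2.83% to 6.51% with 1 library left out, and cold on HFD 2.51% and 5.85% to 9.61%. The diet comparison at 22 °C gave 0.253% and 0.674% to 2.12%, and 4.95% with DESeq2; at 4 °C it gave 0.32% and 1.38% to 5.72%, and 7.89% with DESeq2. Replicates 1 and 2 alone gave 3.25% with the diet effect averaged and 8.44% across the 4 groups. In the 6 libraries compared, 5.28% changed with cold on HFD and 0.949% by diet at 4 °C. Batch 1 and the 6-library fits have fewer residual degrees of freedom; the cause of the other shifts was not tested. *Nr4a1*, *Ppara* and *Nr1d1* have a wide within-group spread, and *Vdr* and *Nr4a3* rest on few counts.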
